A study of Rattus norvegicus with 13 samples.

Results

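The metallothionein and oxidative stress defence genes examined here were 10 named genes of the rat frontal cortex, namely the metallothioneins Mt1a, Mt2A and Mt3 and the redox genes Hmox1, Nqo1, Slc7a11, Txnip, Txnrd1, Gclm and Gpx1. They were found by their gene names in the array design, where 13 of 30367 probes carried 1 of the 10 names. Of these probes 12 passed the filter on dim signal that left 20004 probes, and 9 of the 10 genes entered the fit over 17232 genes. The tissue was frontal cortex of male Sprague–Dawley rats, taken 1 month after surgery, with 1 one-colour array for each of 13 samples. In the rotational model, an angular acceleration of the head, 3 trauma samples were compared with 3 sham samples. In the lateral fluid percussion model, a pressure pulse onto the dura, 3 trauma samples were compared with 4 sham samples. Sham rats of both models went through anaesthesia and surgery and received no trauma. The sample titles number the replicates and do not say whether each is a separate animal. The p-values measure the spread between these samples.

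Metallothioneins are small cysteine-rich proteins that hold zinc and copper. Their genes are switched on by the zinc-sensing factor MTF1, which binds metal response elements in their promoters, and in the brain Mt1a and Mt2A are known mainly from astrocytes while Mt3 is the brain-enriched form. The other genes belong to the glutathione and thioredoxin systems. NRF2, a transcription factor that is released from its inhibitor KEAP1 under oxidative stress, acts on antioxidant response elements and is known to drive Hmox1, Nqo1, Slc7a11, Txnrd1 and Gclm.

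The promoters of the 3 metallothionein genes are shown because they hold the letters that the zinc-sensing factor is known to read. Each line gives the 250 bases before the transcript start in the RefSeq promoter table of build GRCr8, on the minus strand, with matches to the metal response element core (TGCACNC or TGCGCNC, on either strand) in capitals.
Mt1a (chr19:10832976-10833225): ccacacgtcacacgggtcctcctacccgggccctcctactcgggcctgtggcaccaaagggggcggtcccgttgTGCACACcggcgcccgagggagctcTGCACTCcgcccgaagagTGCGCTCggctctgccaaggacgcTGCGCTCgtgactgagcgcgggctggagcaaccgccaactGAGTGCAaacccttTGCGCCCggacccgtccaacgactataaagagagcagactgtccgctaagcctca
Mt2A (chr19:10838709-10838958): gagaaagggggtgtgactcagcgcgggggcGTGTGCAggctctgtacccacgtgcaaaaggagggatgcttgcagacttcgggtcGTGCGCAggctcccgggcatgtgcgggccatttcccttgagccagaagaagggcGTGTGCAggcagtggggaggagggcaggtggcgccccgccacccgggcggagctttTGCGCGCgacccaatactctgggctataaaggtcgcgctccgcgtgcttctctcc
Mt3 (chr19:10856081-10856330): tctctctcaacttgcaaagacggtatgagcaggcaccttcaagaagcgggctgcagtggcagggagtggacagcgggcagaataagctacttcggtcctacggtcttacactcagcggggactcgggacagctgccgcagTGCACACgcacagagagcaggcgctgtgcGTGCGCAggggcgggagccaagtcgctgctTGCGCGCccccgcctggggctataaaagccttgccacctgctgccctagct
The window of Mt1a, which the table lists as Mt1, held 6 matches, that of Mt2A 4 and that of Mt3 3. Of 33469 rat promoter windows of this length, 20.6% held at least 1 match and 1.17% held 3 or more. An antioxidant response element core (TGACNNNGC, on either strand) was found in 10.1% of the windows. It matched once in the window of Mt1a, once in that of Mt2A and not in that of Mt3, and no match overlapped one of the metal response element core. The table held 9 windows for 8 of the 10 genes. Among the other 5 genes, Gclm had 2 metal response element cores and 1 antioxidant response element core, and 1 of the 2 Txnrd1 windows had 1 antioxidant response element core. The windows of Nqo1, Slc7a11 and Gpx1 held neither, and sequence farther than 250 bases before a start was not searched. A match of letters is a description of the sequence and does not show that a factor binds there.

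**Figure D1:**
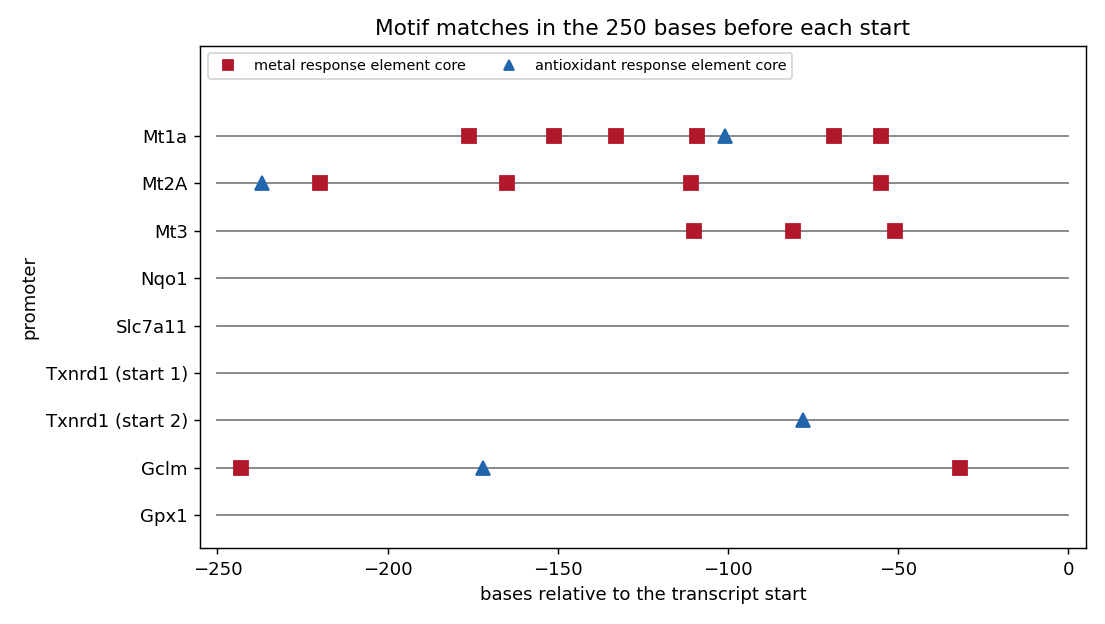
Matches to the metal response element core (squares) and the antioxidant response element core (triangles) in the 250 bases before 9 transcript starts of 8 genes, by distance from the start in bases. The 6, 4 and 3 squares of Mt1a, Mt2A and Mt3 lie between 220 and 51 bases before the start, and Gclm is the remaining gene with squares.

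The probes differ in what they read, so 2 are shown for the genes with a pair of probes that the results turn on. The second Mt2A probe lies on the minus strand (rn4, chr19:11268168-11268227). Read in triplets from its first base, 7 of its 20 triplets are TGC, a cysteine codon, which are in capitals. The second Slc7a11 probe lies 6869 bases from the first one, on the minus strand as well (rn4, chr2:139248397-139248456), and is given with no capitals.
Mt2A second probe: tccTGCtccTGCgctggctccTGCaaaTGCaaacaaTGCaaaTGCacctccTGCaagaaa
Slc7a11 second probe: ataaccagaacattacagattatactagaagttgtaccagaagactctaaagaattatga

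Between 67.0% and 74.1% of the spots of an array were well above background, and 0 spots were saturated. The share above background was 67.0% to 72.5% in rotational trauma, below the 73.1% to 74.1% of rotational sham. In the other direction, it was 72.7% to 73.8% in percussion trauma, above the 67.6% to 69.4% of percussion sham. Each model was hybridised on a slide of its own, and the effects of model and slide cannot be told apart. Trauma arrays lay in column 2 of the rotational slide and in column 1 of the percussion slide, so column and injury cannot be told apart within a model. Neuron and astrocyte markers were present (8 of 8 and 10 of 10 listed genes measured). The striatum markers stood apart on 2 arrays, with list scores of 1.47, −0.28 and 1.11 in rotational sham samples 1 to 3, against −0.59 to 0.34 on all other arrays. Without rotational sham sample 1 the rotational differences described below were 0.21 for Mt1a, 0.21 for Mt2A, 0.51 for Slc7a11 and 1.13 for Txnip. Without rotational sham sample 3 they were 0.29, 0.34, 0.40 and 0.79 for the same genes in that order. Values below are log2 signals relative to the upper quartile of the array, and levels of different probes are not comparable.

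Across the 9 measured genes, Slc7a11 was the gene whose trauma arrays lay above their sham arrays in both models, by 0.43 after rotational and 0.40 after percussion injury on the log2 scale. Txnip, an inhibitor of thioredoxin, had the largest rotational difference of the 9 genes, 0.88. Its percussion difference of 0.54 was 0.30 without percussion trauma sample 1 and 0.78 without percussion trauma sample 3. The metallothioneins Mt1a and Mt2A were 0.26 and 0.31 higher after rotational injury and 0.06 and 0.07 higher after percussion injury, and Mt3 differed by 0.05 and −0.08. None of these values passed an adjusted p of 0.05 in limma. After rotational trauma 0 of 9 genes passed, where 2 of 17232 genes did (0.0116%). After percussion trauma 0 of 9 passed, as did 0 of 17232 genes (0%), with 1992 (11.6%) at an unadjusted p under 0.05. With percussion trauma sample 3 left out, 92 genes passed after percussion trauma, none of them among the 9. The trauma arrays did not overlap the sham arrays and lay above them for 3 of the 9 genes in the rotational model (Mt1a, Slc7a11 and Txnip), where 4.54% of all genes did so. In the percussion model this held for 1 of 9 (Slc7a11), against 6.94% of all genes, and 0.598% of all genes did so in both models. In these bulk samples, a change in the number of cells of a type and a change in RNA per cell cannot be told apart.

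**Figure D2:**
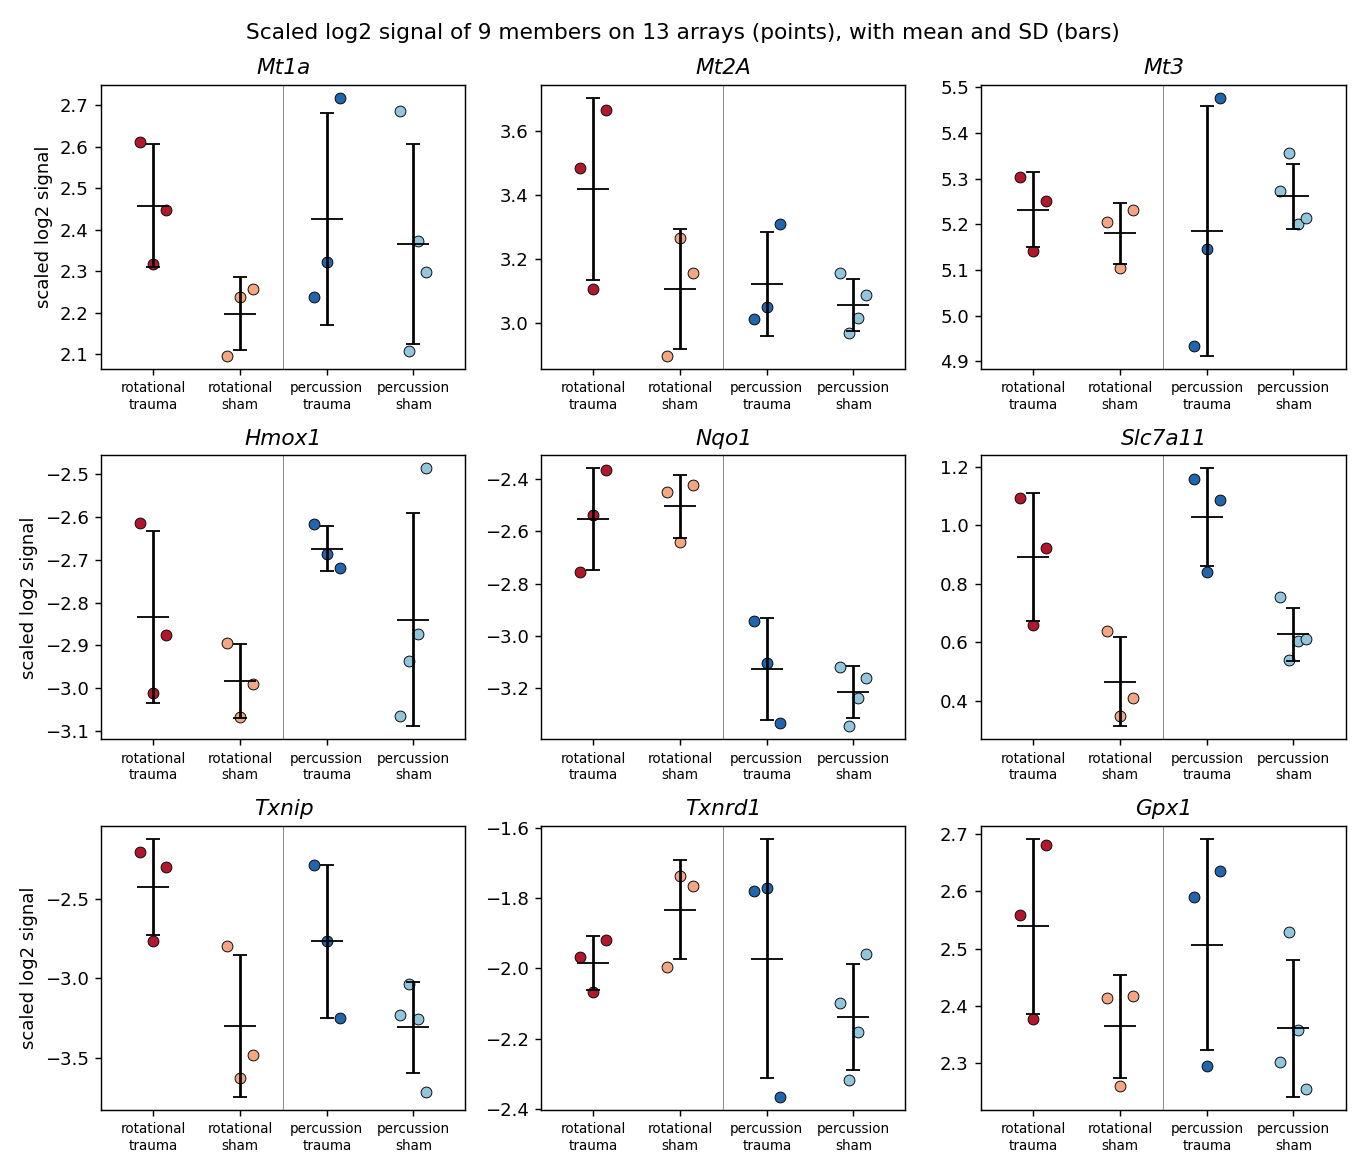
Scaled log2 signal of 9 genes on the 13 arrays, with trauma left of sham for each model; points are arrays, horizontal bars means and vertical bars SD (n = 3, and n = 4 for percussion sham). The points of Slc7a11 separate trauma from sham in both models, and those of Nqo1 differ mainly between the models.

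The rotational comparison asked how the metallothioneins stood 1 month after an angular acceleration of the head. Mt1a (probe on chromosome 19, rn4 11261631 to 11261690) had signals of 2.61, 2.32 and 2.45 in rotational trauma, against 2.10, 2.24 and 2.26 in rotational sham. The 3 trauma values lay above the 3 sham values, with a gap between the groups that was small next to the spread. The difference of 0.26 (SE 0.16, 95% interval −0.08 to 0.60) did not pass (limma, adjusted p = 0.816). Mt2A (chromosome 19, 11267834 to 11267893) had 3.48, 3.11 and 3.67 in rotational trauma, against 2.90, 3.26 and 3.16 in rotational sham. Trauma samples 1 and 3 lay above every sham sample and trauma sample 2 lay among them. Its difference of 0.31 (SE 0.14) had an adjusted p of 0.714 by limma and was 0.19 without rotational trauma sample 3. The second Mt2A probe, in the cysteine codons printed above, read 2.82, 2.53 and 2.86 in rotational trauma and 2.20, 2.62 and 2.61 in rotational sham, a difference of 0.26 (SE 0.13). Mt3 (chromosome 19, 11284627 to 11284686) had 5.30, 5.14 and 5.25 in rotational trauma, against 5.21, 5.10 and 5.23 in rotational sham, with an interval of the difference from −0.20 to 0.31.

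After percussion injury the metallothionein groups overlapped throughout. Mt1a had 2.24, 2.32 and 2.72 in percussion trauma, against 2.69, 2.11, 2.37 and 2.30 in percussion sham. Trauma sample 3 and sham sample 1 were both high. Mt2A had 3.01, 3.05 and 3.31 in percussion trauma, against 3.15, 2.97, 3.01 and 3.09 in percussion sham. Trauma sample 3 was again the highest. The differences were 0.06 (95% interval −0.26 to 0.38) for Mt1a and 0.07 (−0.23 to 0.36) for Mt2A. Mt3 had 4.93, 5.15 and 5.48 in percussion trauma, against 5.27, 5.36, 5.20 and 5.21 in percussion sham, so the trauma arrays spread to both sides of the sham arrays. Its interval ran from −0.31 to 0.16. The rotational effect minus the percussion effect was 0.20 (SE 0.21) for Mt1a, 0.25 (SE 0.20) for Mt2A and 0.13 (SE 0.16) for Mt3, and no difference between the models passed (adjusted p of 0.752 or more). Without percussion trauma sample 3 the percussion differences were −0.09 for Mt1a and −0.03 for the first Mt2A probe. Without percussion sham sample 2 that of Mt1a was −0.03, so the sign of these values rested on single arrays. The second Mt2A probe differed by 0.15 (SE 0.12) after percussion trauma, and by 0.07 to 0.19 with 1 array left out.

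Of the 36 pairs of genes, Mt1a and Mt2A had the smallest p for moving together from array to array within groups. With group means removed, their Pearson r over 13 arrays was 0.65 (permutation p = 0.00868, 0.169 after adjustment over 39 relations) and Spearman's rho 0.764 (permutation p = 0.00579, adjusted 0.113). Pearson's r was 0.70 on the rotational slide and 0.906 on the percussion slide, and 0.606 without the 2 arrays farthest from the median of Mt1a. Neither coefficient passed the adjustment. The 2 Mt2A probes, which share 1 gene, had an r of 0.927 (permutation p = 0.000193, the smallest the 5184 relabellings within groups allow, and 0.00752 adjusted).

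Slc7a11 encodes the light chain of the cystine and glutamate antiporter, which takes up cystine for glutathione synthesis and releases glutamate. Its first probe (chromosome 2, rn4 139241468 to 139241527) had 1.09, 0.66 and 0.92 in rotational trauma, against 0.64, 0.35 and 0.41 in rotational sham. Each trauma array lay above each sham array, by a narrow margin between trauma sample 2 and sham sample 1. The difference was 0.43 (SE 0.12), 1.34-fold (limma, adjusted p = 0.501). In percussion trauma it had 1.16, 0.84 and 1.09, against 0.75, 0.54, 0.60 and 0.61 in percussion sham. The groups were again apart, and the difference was 0.40 (SE 0.12), 1.32-fold (adjusted p = 0.255). The second probe, printed above, lay −3.97, −3.95 and −3.54 in rotational trauma against −4.58, −4.09 and −4.59 in rotational sham. It lay −3.90, −4.17 and −3.85 in percussion trauma against −4.42, −4.68, −4.96 and −5.08 in percussion sham. This probe separated the groups in both models as well, with differences of 0.60 (SE 0.20, adjusted p = 0.567 over 20004 probes) and 0.81 (SE 0.18, adjusted p = 0.205). With normexp background correction these differences of the dim second probe were 0.31 and 0.49. With the mean of both probes the percussion difference of Slc7a11 was 0.61.

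Taken as the mean of both models, the Slc7a11 difference was 0.41 (SE 0.09, 95% interval 0.23 to 0.60), higher in 6 of 6 trauma arrays than in every sham array of their model. Its unadjusted p was 0.000497, rank 39 of 17232 genes, and its adjusted p of 0.179 did not pass. For the second probe the mean was 0.71 (SE 0.13, rank 23 of 20004 probes, adjusted p = 0.194), and 0.40 with normexp background correction. The Slc7a11 effects of the models differed by 0.03 (95% interval −0.35 to 0.40). With group means removed, no relation of the 2 probes from array to array was shown over the 13 arrays. Pearson's r was 0.143 (permutation p = 0.661) and Spearman's rho 0.137 (permutation p = 0.652). By slide, r was −0.24 on the rotational and 0.62 on the percussion slide. For the 2 Txnrd1 probes r was 0.177 (permutation p = 0.445).

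Slc3a2, the heavy chain that pairs with Slc7a11, was named after its values were seen. It differed by −0.06 (SE 0.10) after rotational and 0.19 (SE 0.09) after percussion injury and did not pass in either (limma, adjusted p of 0.976 and 0.455). Gclm encodes the modifier subunit of the enzyme that joins cysteine to glutamate in glutathione synthesis. Its 1 probe (chromosome 2, 218915215 to 218915274) was not well above background on any of the 13 arrays, and no fold change is given for it.

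Txnip binds and inhibits thioredoxin and restrains glucose uptake. Its signal (probe on chromosome 2, 191360631 to 191360690) was −2.20, −2.77 and −2.30 in rotational trauma, against −2.79, −3.63 and −3.48 in rotational sham. The groups nearly touched at trauma sample 2 and sham sample 1. The difference was 0.88 (SE 0.28), 1.84-fold (limma, adjusted p = 0.547). In percussion trauma it was −2.29, −2.76 and −3.25, against −3.23, −3.04, −3.25 and −3.71 in percussion sham. Trauma samples 1 and 2 were above all sham samples, and trauma sample 3 lay at the level of sham samples 1 and 3. The difference was 0.54 (SE 0.26, adjusted p = 0.461). The spread of Txnip within groups (SD 0.379) was larger than that of 88.6% of genes, where the median gene had 0.152 (SD, 13 arrays). Over both models the mean difference was 0.71 (SE 0.19, adjusted p = 0.275).

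**Figure D3:**
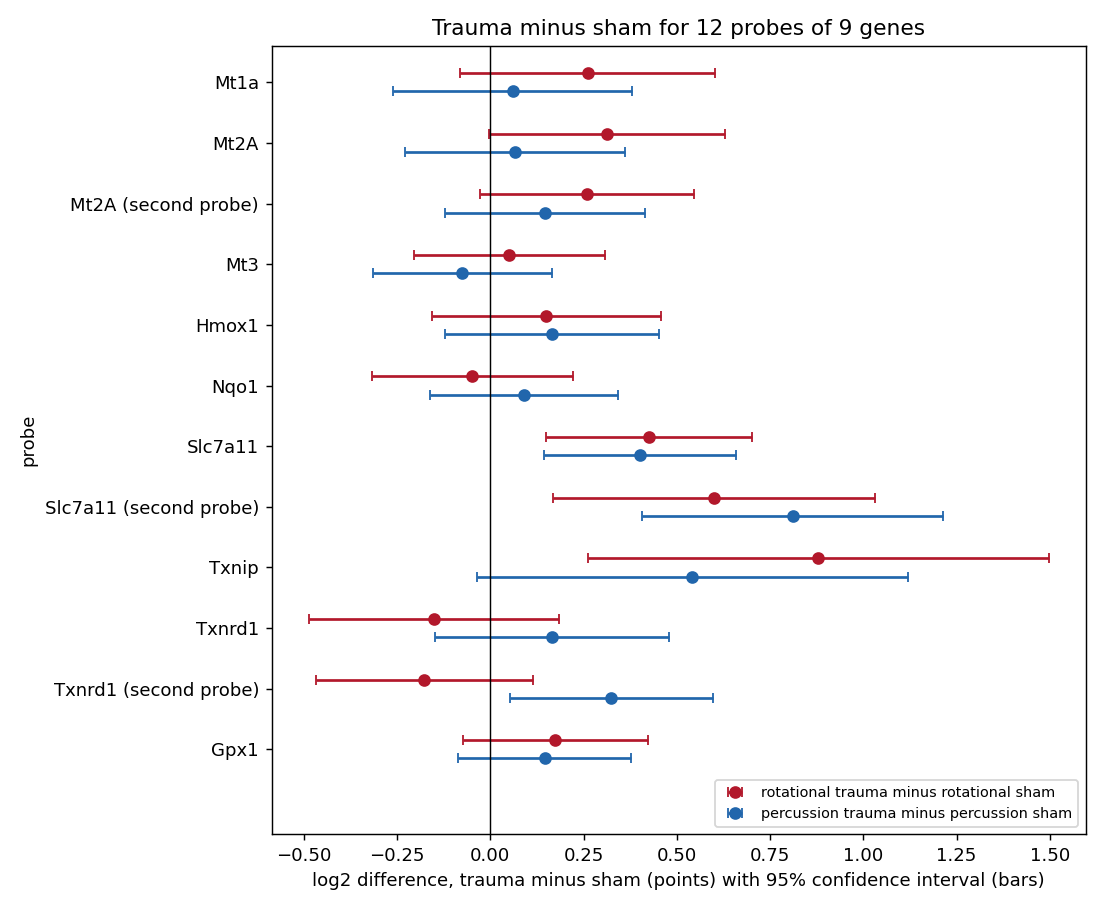
Log2 difference of trauma minus sham for 12 probes of 9 genes, rotational above percussion in each row, with 95% confidence intervals. The intervals of both Slc7a11 probes lie above 0 in both models, that of Txnip does in the rotational model, that of the second Txnrd1 probe does in the percussion model, and those of Mt1a, Mt2A and Mt3 include 0.

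Hmox1 encodes heme oxygenase, which breaks heme down to biliverdin, iron and carbon monoxide. It had −2.61, −3.01 and −2.87 in rotational trauma, against −2.89, −3.07 and −2.99 in rotational sham. It had −2.62, −2.69 and −2.72 in percussion trauma, against −3.06, −2.94, −2.87 and −2.49 in percussion sham. The 3 percussion trauma arrays lay above 3 of the 4 sham arrays and below sham sample 4. The differences were 0.15 (SE 0.14) and 0.17 (SE 0.13), and neither passed (limma, adjusted p of 0.912 and 0.649). They ran from 0.04 to 0.24 and from 0.09 to 0.28 with 1 array left out. The probe lies on chromosome 19 (13969336 to 13969395).

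Nqo1 encodes a quinone reductase and is a common marker of NRF2 activity. It had −2.75, −2.54 and −2.37 in rotational trauma, against −2.45, −2.64 and −2.42 in rotational sham, and −2.94, −3.11 and −3.34 in percussion trauma, against −3.12, −3.35, −3.24 and −3.16 in percussion sham. The groups of each model overlapped, while every rotational array lay above every percussion array. Model and slide cannot be told apart in that gap. The trauma differences were −0.05 (SE 0.12) and 0.09 (SE 0.11). The Nqo1 probe lies on chromosome 19 (37251727 to 37251786).

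Txnrd1 encodes the cytosolic reductase that restores thioredoxin. Its first probe (chromosome 7, 23055528 to 23055561) had −1.97, −2.07 and −1.92 in rotational trauma, against −2.00, −1.74 and −1.77 in rotational sham. In percussion trauma it had −1.78, −1.77 and −2.36, against −2.10, −2.32, −2.18 and −1.96 in percussion sham. Percussion trauma sample 3 was the lowest of its slide and the other 2 trauma samples were the highest. The differences had opposite signs, −0.15 (SE 0.15) and 0.17 (SE 0.14). The percussion value was 0.07 without percussion trauma sample 2 and 0.36 without percussion trauma sample 3. The second probe (chromosome 7, 23065196 to 23065255) had −4.48, −5.02 and −4.64 in rotational trauma, against −4.49, −4.57 and −4.55 in rotational sham. It had −4.25, −4.34 and −4.37 in percussion trauma, against −4.39, −4.71, −4.72 and −4.76 in percussion sham. On this probe the percussion trauma arrays all lay above the sham arrays, narrowly so for sham sample 1, while the rotational groups overlapped. Its differences were −0.18 (SE 0.13) and 0.32 (SE 0.12, 95% interval 0.05 to 0.60, adjusted p = 0.353 by limma over 20004 probes). The test of the difference between the models gave −0.32 (SE 0.21, adjusted p = 0.695) for the first probe and −0.50 (SE 0.18, unadjusted p = 0.0178, adjusted p = 0.41 over 20004 probes) for the second.

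Gpx1 encodes the main cytosolic glutathione peroxidase, a selenoprotein that reduces hydrogen peroxide. It had 2.56, 2.38 and 2.68 in rotational trauma, against 2.41, 2.26 and 2.42 in rotational sham. It had 2.59, 2.30 and 2.63 in percussion trauma, against 2.30, 2.53, 2.36 and 2.25 in percussion sham. In each model trauma samples 1 and 3 lay above every sham sample and trauma sample 2 lay within the sham range. The differences were 0.17 (SE 0.11) and 0.15 (SE 0.11), with an adjusted p of 0.846 and 0.616 by limma. The rotational value was 0.10 without rotational trauma sample 3. The files place this probe on an rn4 sequence with no fixed place on a chromosome, so its position is uncertain.

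As a list, 7 of the 9 genes had a difference above 0 after rotational trauma, with a median of 0.17, where 38.1% of all genes lay above 0 and their median was −0.03. After percussion trauma 8 of 9 lay above 0, with a median of 0.15, where 56.9% of all genes did and the median was 0.03. At an unadjusted p under 0.05, 2 of the 9 were higher after rotational trauma (Slc7a11 and Txnip), against 2.70% of all genes. After percussion trauma 1 was higher (Slc7a11), against 8.70% of all genes. For the mean of both models 8 of 9 lay above 0, against 47.2% of all genes, and 2 were higher at an unadjusted p under 0.05 (Slc7a11 and Txnip), against 5.36%.

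Markers of the brain coverings were higher in the same trauma arrays. All 12 meningeal markers had differences above 0 in both models, with medians of 1.05 and 1.29, and 0 passed (smallest adjusted p of 0.151 and 0.174, limma). The mean score of the list ran from 0.06 to 1.05 in rotational trauma, against −0.97 to −0.13 in rotational sham, and from 0.18 to 1.49 in percussion trauma, against −1.11 to −0.15 in percussion sham. Of its defining genes, Ogn differed by 2.07 and 1.36, Col1a1 by 0.88 and 1.82 and Col1a2 by 1.23 and 1.30, each well above background on all 13 arrays. Lum of the same list was not well above background on any percussion sham array, and with it at its bound the percussion median was 1.24. The choroid plexus and ependyma markers that were measured, 4 of 8 listed, were also all above 0 (medians 1.04 and 1.29). Their score overlapped between rotational trauma (−0.20 to 0.84) and rotational sham (−1.62 to 0.45, lowest in sample 2). It ran from 0.07 to 1.22 in percussion trauma, against −1.08 to −0.07 in percussion sham. Border macrophage markers lay above 0 for 4 of 4 genes after rotational trauma (median 0.93). After percussion trauma Clec10a differed by 1.20 and Lyve1 by −0.06, while Cd163 and F13a1 were not well above background on any percussion sham array. With these at their bound the percussion median was 0.60. Mural cell markers lay above 0 for 7 of 8 genes in each model (medians 0.22 and 0.50), with 1 and 6 higher at an unadjusted p under 0.05. Oligodendrocyte markers lay above 0 for 7 of 8 genes after rotational trauma (median 0.41, 3 higher at an unadjusted p under 0.05) and for 4 of 8 after percussion trauma. The rotational scores of this list overlapped, with 0.45, 0.06 and 0.25 in trauma against 0.09, −0.54 and 0.09 in sham. Sham sample 2 was the low one. Red blood cell markers lay above 0 for 0 of 5 genes in each model (medians −0.33 and −0.39). Striatum markers did so for 0 of 8 and 1 of 8 (medians −0.59 and −0.07). Rotational and percussion medians were −0.01 and 0.06 for microglia and macrophages and −0.11 and 0.03 for neurons. They were 0.05 and 0.14 for endothelium (0.10 with Tek at its bound) and 0.13 and 0.08 for neutrophils and monocytes. Of all genes, 38.1% lay above 0 after rotational and 56.9% after percussion trauma. At an unadjusted p under 0.05 (limma), 2.70% and 8.70% of all genes were higher.

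With group means removed, Txnip was higher on the arrays with a higher meninges score. Pearson's r was 0.889 (permutation p = 0.00289, 0.0521 after adjustment over 18 relations of 9 genes with 2 lists) and Spearman's rho 0.912 (permutation p = 0.00231, adjusted 0.0417). Without the 2 arrays farthest from the median score r was 0.863, and it was 0.903 on the rotational and 0.883 on the percussion slide. For Slc7a11 the values were r = 0.664 (permutation p = 0.0498, adjusted 0.186) and rho = 0.626 (permutation p = 0.0702, adjusted 0.253), with r = 0.971 on the rotational and 0.392 on the percussion slide and 0.515 without the 2 farthest arrays. For Mt1a and Mt2A, r with the meninges score was −0.04 and −0.20 (permutation p of 0.917 and 0.58; rho −0.09 and −0.25, permutation p of 0.82 and 0.503). The 2 lists were chosen for this relation after values were seen.

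**Figure D4:**
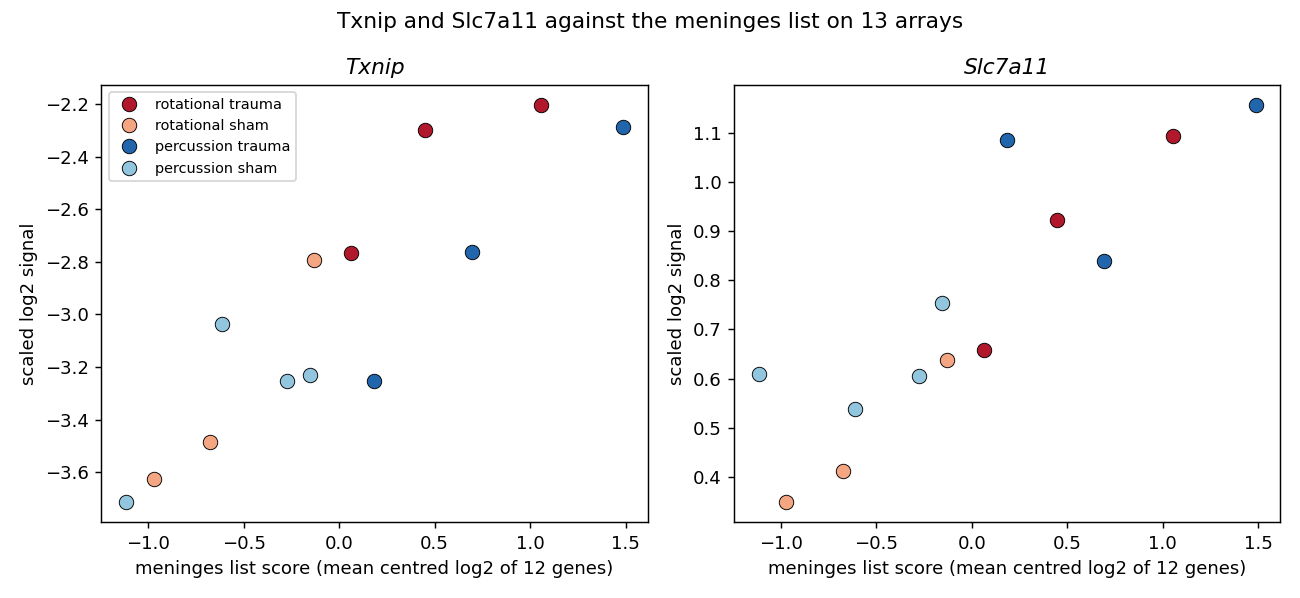
Scaled log2 signal of Txnip (left) and Slc7a11 (right) against the meninges list score, the mean centred log2 signal of 12 marker genes, on 13 arrays coloured by group. Arrays with a higher score have a higher Txnip signal, with r = 0.889 once group means are removed.

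Astrocyte markers, whose cells are a known site of Mt1a, Mt2A and Slc7a11, gave list medians of −0.04 after rotational and 0.04 after percussion trauma over 10 genes. Their score ran from −0.11 to 0.19 in rotational trauma, against −0.05 to 0.04 in rotational sham, and from 0.08 to 0.15 in percussion trauma, against −0.15 to −0.09 in percussion sham. Gfap, the astrocyte intermediate filament gene, differed by −0.37 (SE 0.33), the lowest of the list, after rotational and 0.99 (SE 0.31) after percussion trauma. In each model 2 of the 10 markers were higher with no overlap between groups, against 4.54% (rotational) and 6.94% (percussion) of all genes. These markers, named after their values were seen, were Gjb6 (0.49) and Vim (0.83) after rotational trauma and Vim (1.09) and Gfap after percussion trauma. Vim, an intermediate filament gene, is also expressed in meningeal and vessel cells. The within-group r of the astrocyte score was 0.724 for Slc7a11 (permutation p = 0.0517; rho 0.676, permutation p = 0.0689), 0.243 for Mt1a (permutation p = 0.411; rho 0.126, permutation p = 0.693) and 0.446 for Mt2A (permutation p = 0.5; rho 0.192, permutation p = 0.653). For Slc7a11 it was 0.947 on the rotational and 0.0233 on the percussion slide, and 0.415 without the 2 arrays farthest from the median score, so it did not hold within the percussion slide. Without those 2 arrays it was −0.15 for Mt1a and −0.06 for Mt2A. Of the 18 relations, the smallest adjusted p for an astrocyte relation was 0.153 (rho of Mt3, 0.736). The part of astrocyte number in the metallothionein values was not tested, nor was that of meningeal tissue in the values of Txnip and Slc7a11.

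The wider redox and metal genes were described by 9 lists with 94 measured genes, of which 0 passed after rotational or percussion trauma (limma). At an unadjusted p under 0.05, 7 of the 94 were higher and 2 lower after rotational trauma, against 2.70% and 4.29% of all genes. After percussion trauma 15 were higher and 4 lower, against 8.70% and 2.86% of all genes. The 15 include Osgin1, which was not well above background on any percussion sham array. In the list of regulators, 2 of 8 measured genes lay above 0 after rotational and 5 of 8 after percussion trauma. Nfe2l2, which encodes NRF2, had the smallest rotational p of that list, with a difference of 0.25 (SE 0.09, adjusted p = 0.581, limma) and 3 trauma arrays above all 3 sham arrays, and 0.14 (SE 0.08) after percussion trauma. Mafk, a small MAF partner of NRF2, differed by −0.39 and 0.47. Mtf1, the metal sensor, differed by −0.06 and −0.04 and was named after its values were seen. Of the zinc and copper handling genes 4 of 9 lay above 0 in each model.

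Of the glutathione synthesis and recycling genes, 4 of 12 lay above 0 after rotational and 5 of 12 after percussion trauma (medians −0.05 and −0.02), with no unadjusted p under 0.05. Glutathione peroxidases and transferases lay above 0 for 9 of 13 genes in each model (medians 0.11 and 0.13). Gpx8, an endoplasmic reticulum peroxidase, differed by 0.44 and 0.35, Gstm2 by 0.98 and 1.15 and Gstt1 by 0.16 and 0.35. Without percussion trauma sample 1 the percussion values were 0.15, 0.75 and 0.20 for these genes in that order. The Gstm genes are near-identical copies in part, so their probes may share signal.

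Thioredoxins and peroxiredoxins were split, with 5 of 14 above 0 after rotational and 6 of 14 after percussion trauma. Prdx1, a cytosolic peroxiredoxin, differed by 0.30 (SE 0.11) after rotational trauma. Txnrd2, the mitochondrial thioredoxin reductase, differed by −0.24 and 0.20. After percussion trauma Msrb1, a methionine sulfoxide reductase, differed by −0.25 and the stress-inducible Sesn2 by 0.34 (0.22 without percussion trauma sample 2). Genes of superoxide and peroxide removal lay above 0 for 7 of 8 and 5 of 8, among them Pon2, a paraoxonase, with 0.19 after percussion trauma.

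The heme and iron list had 6 of 9 and 4 of 9 genes above 0. Cp, which encodes the copper-carrying ferroxidase ceruloplasmin, differed by 1.00 (SE 0.28) and 1.15 (SE 0.26), with −0.40, −1.61 and −0.95 in rotational trauma against −1.88, −2.05 and −2.03 in rotational sham. In percussion trauma Cp had −0.76, −1.28 and −1.45, against −1.99, −2.32, −2.24 and −2.73 in percussion sham. The groups were apart in both models, and the adjusted p of 0.492 and 0.202 did not pass. Of the other NRF2 target genes, 11 of 12 and 7 of 12 lay above 0. Ptgr1, a prostaglandin reductase, differed by 0.62 (SE 0.21, and by 0.30 with normexp) after rotational trauma. Its mean was −3.44 in percussion trauma, against −3.83 in percussion sham. Ephx1, an epoxide hydrolase, had a mean of −2.03 in rotational trauma, against −2.24 in rotational sham. It differed by 0.81 (SE 0.20, limma, adjusted p = 0.202) after percussion trauma. Without percussion trauma sample 3 the Ephx1 difference was 1.13 and passed (adjusted p = 0.00534). Osgin1, counted among the 7 above 0 after percussion trauma, was not well above background on any percussion sham array and gets no fold change.

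Sources of oxidants lay above 0 for 7 of 9 and 8 of 9 genes (medians 0.16 and 0.21). Cyba, the membrane subunit of the phagocyte NADPH oxidase, differed by 0.53 (SE 0.18) after percussion trauma and Ncf1, a cytosolic subunit, by 0.40 (SE 0.13). Their means were 1.70 and −1.78 in rotational trauma, against 1.31 and −1.82 in rotational sham. Nox1, a catalytic subunit, differed by −0.73 (SE 0.18) after rotational and 0.48 (SE 0.17) after percussion trauma. Its signal was dim, well above background on 2 of 3 rotational trauma arrays and 3 of 4 percussion sham arrays, the lower group of each model. Nos1, the neuronal nitric oxide synthase, and the monoamine oxidase Maoa differed by 0.48 and 0.16 after rotational trauma. Their means were −4.43 and −0.41 in percussion trauma, against −4.64 and −0.42 in percussion sham. The rotational Nos1 difference was 0.19 with normexp and 0.18 with the mean of all probes of the gene. All of these had an adjusted p of 0.28 or more.

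**Figure D5:**
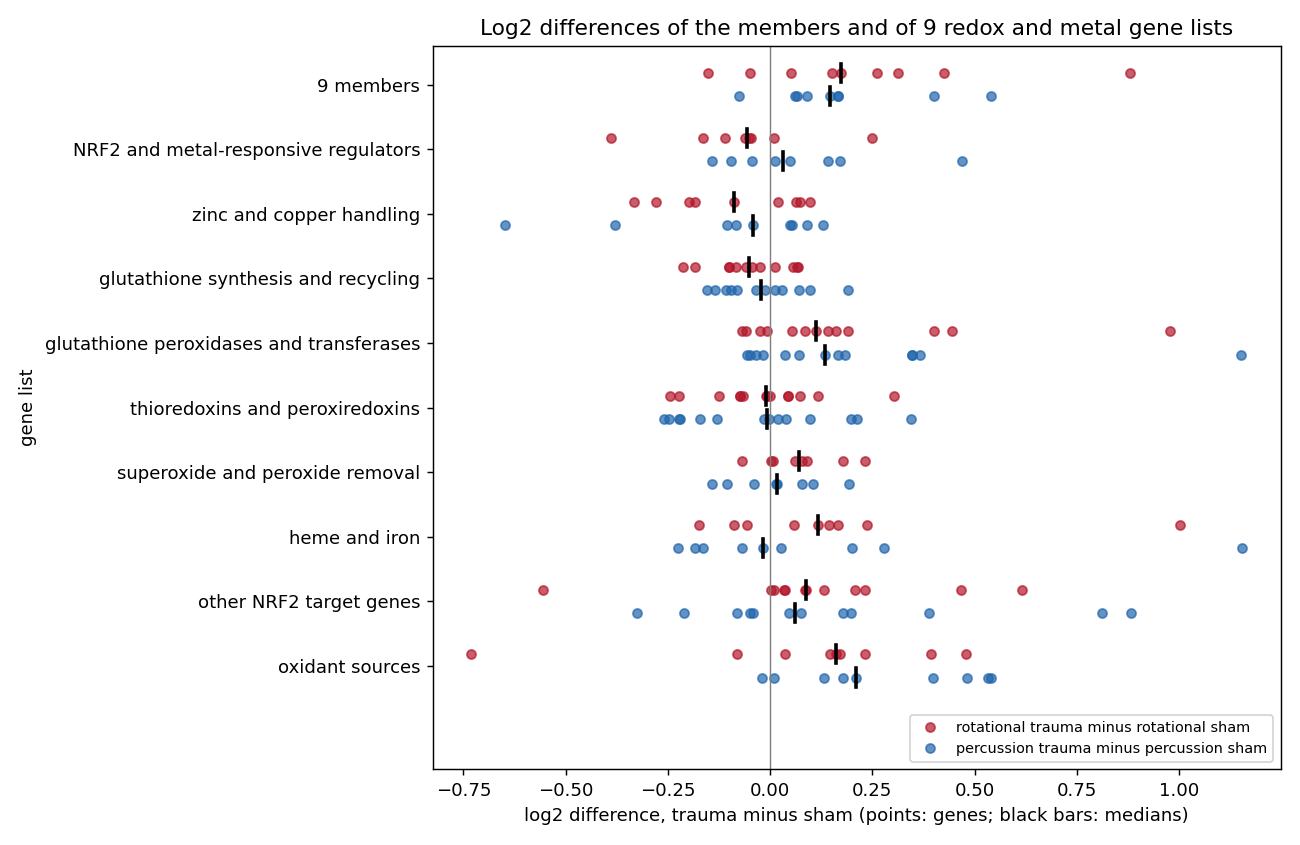
Log2 differences of trauma minus sham for the 9 genes and the genes of 9 redox and metal lists, rotational above percussion in each row; points are genes and black bars list medians. Medians lie between −0.09 and 0.21, and single genes such as Cp lie near 1 in both models.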

How the data were processed

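Each of 13 samples had a 1-colour array. Per the file headers, the authors read the spots in Agilent Feature Extraction, version 10.5.1.1. Each deposited scanner file holds 1 intensity per spot after subtraction of background and spatial detrending, with no scaling between arrays. The authors also deposited log2 values, which all have the median 8.15 and differ little once sorted. Each of the 13 columns matched its own array best. Other steps of theirs are not given in the sources used here.

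Control spots and outlier spots were left out, log2 signals were scaled by each array's 75th percentile, and spots of a probe were averaged. A probe was kept where, in 1 or more of the 4 groups, all its spots on all arrays were well above background, and a gene with several probes took the probe of highest mean. Names were updated from a GRCr8 gene table. A mean per group was fitted with limma 3.58.1 in R 4.3.3 (9 residual and 2.22 prior degrees of freedom), with two-sided contrasts and Benjamini-Hochberg adjustment over 17232 genes at 0.05. On simulated data with 200 genes changed by 1 log2 unit, the rotational contrast over 17232 genes recovered 79.5%, with 13 false calls. The rotational differences of the 9 genes reached 0.88 at most, so the recovered share does not apply to them. On the real arrays Cp, at 1.00 after rotational trauma, did not pass (limma, adjusted p = 0.492). The 2 probes of a gene were compared in a fit over all 20004 probes.

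The genes and lists were chosen with earlier results of these data known, and 1 gene of the lists is not reported here. The rule for named genes took all 10 genes, per pathway list and model up to 3 genes of smallest unadjusted p under 0.05, the first 3 measured markers of a list, and the 5 genes most alike to Mt1a and to Mt2A. Relations across arrays used exact two-sided permutation within groups (scipy 1.17.1 under Python 3.11.15). Replicate numbers were not used to pair the samples. Alternatives were other scalings, filters, probe summaries, blocks and leaving out each array. The number of arrays limits the precision.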

Additional observations from a re-analysis of the deposited data

Results flagged for a closer look

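Mafk, Nox1 and Txnrd2 were looked at again because each of the 3 rotational trauma arrays lay below its sham mean and each of the 3 percussion trauma arrays above its own. The rotational effect minus the percussion effect was −0.86 for Mafk (SE 0.25, adjusted p = 0.327), −1.21 for Nox1 (SE 0.25, adjusted p = 0.183) and −0.44 for Txnrd2 (SE 0.10, adjusted p = 0.215), and limma's test of the difference passed for none of them. On both slides the arrays of column 1 had the higher mean for these 3 genes, and column and injury cannot be told apart within a model. The Nox1 signal was dim in the lower group of each model, as described above.

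Single arrays stood far from the other 3 in percussion sham for 2 of 28 genes checked, where chance gives about 1 in 20. Ephx1 was highest in sample 3 (its gap to the nearest other array was 0.883 of the group's range, above Dixon's 95% critical value for 4 samples) and Maoa was lowest in sample 2 (0.922). None of the 9 metallothionein and redox genes of the first comparison had an array that stood apart in this way in percussion sham. The critical value is for 4 samples, and the groups of 3 arrays were not judged by it. In percussion trauma the first Txnrd1 probe had −2.36 in sample 3, against −1.78 and −1.77 in samples 1 and 2.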

How the results depend on the processing

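No first probe of the 9 genes passed an adjusted p of 0.05 under any of the 23 alternatives; the smallest was 0.0558, for the Slc7a11 mean of both models without rotational trauma sample 2. The second Slc7a11 probe passed after percussion trauma with no filter on dim probes (adjusted p = 0.0218), as did Cp (0.022) and Ephx1 (0.0274). Their differences were the same as with the filter, and their unadjusted p was larger (limma, 0.00143 against 0.00103 for Cp). These passes therefore rest on the adjustment and not on larger differences. The number of genes called after rotational trauma, 2, was 0 with quantile normalisation, 4 with normexp, 6 with the authors' deposited values, 334 with no filter, 1 with probes above background on all arrays, 0 with slide row as a factor and 6 with rotational arrays alone. It ran from 0 to 12 when 1 array was left out, with 12 without rotational trauma sample 3. After percussion trauma, 0 became 1 with the authors' values, 2899 of 26239 genes with no filter, 8 with slide row and 0 to 92 with 1 array left out. For the mean of both models, 0 became 5 with slide row and 0 to 19 with 1 array left out. For the difference between models, 0 became 3770 with no filter and 0 to 8 with 1 array left out.

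The replicate numbers were not treated as pairs. Same-numbered deviations correlated at 0.109, 0.265 and 0.021 in the rotational and 0.282, −0.02 and −0.01 in the percussion model. Deviations of different numbers correlated at −0.226 to 0.133 and at −0.236 to 0.228. These ranges overlap, so the values do not settle whether the samples were paired. With the replicate block the called genes were 0 after rotational trauma and 28 for the mean of both models.

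Values near 0 changed sign, and the cause was not tested. With quantile normalisation, the mean of both models was 0.0122 for Mt3, −0.0034 for Nqo1 and −0.0123 for Txnrd1, and the difference between models was 0.0597 for Hmox1. With array median scaling these were −0.0148 for Nqo1, −0.0281 for Txnrd1 and 0.0244 for Hmox1, and with normexp −0.0072 for Txnrd1. With the authors' values they were 0.0111 for Mt3, −0.0221 for Nqo1, −0.0232 for Txnrd1, 0.0423 for Hmox1 and −7e-04 for Gpx1 (difference between models). With slide row they were 0.0094 for Mt3, −0.0113 for Txnrd1, 0.0379 for Hmox1 and −0.0164 for Slc7a11 (difference between models), which was −0.0927 with the mean of all probes.

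With 1 array left out, the rotational difference of Nqo1 ran from −0.14 to 0.0525. Percussion differences ran from −0.0864 to 0.17 for Mt1a, −0.0264 to 0.12 for Mt2A, −0.22 to 0.0498 for Mt3 and −0.0029 to 0.19 for Nqo1. Means of both models ran from −0.0849 to 0.0506 for Mt3, −0.0264 to 0.0722 for Nqo1 and −0.0433 to 0.11 for Txnrd1. Differences between models ran from −0.13 to 0.0731 for Hmox1, −0.0757 to 0.14 for Slc7a11, −0.0764 to 0.11 for Gpx1 and −0.02 to 0.22 for the second Mt2A probe.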

Other observations

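For Mt1a and Mt2A, the 5 genes whose pattern over the 13 arrays was most alike were taken by Pearson r after removing the mean of each model. For Mt1a, those with a gene name were Rreb1 (r = 0.845), which encodes a zinc finger protein, and Slc7a10 (0.84), which encodes an amino acid transporter of astrocytes. For Mt2A they were Ace (0.839), which encodes angiotensin-converting enzyme, Vstm2b (0.835) and Fxyd1 (0.823), a regulator of the sodium pump. The remaining probes on both lists have no gene name in the tables used here, and 1 of them was shared by both lists. These are the highest of 17232 values each, over arrays that share slides, and are given as a description.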
